A study of Mus musculus with 10 samples.

Results

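CC chemokines are small secreted proteins, named for a pair of adjacent cysteines, that guide leukocytes by binding G protein-coupled receptors on them. The genes Ccl2, Ccl7, Ccl12, Ccl5, Ccl3, Ccl4, Ccl9, Ccl6, Ccl22 and Ccl17 were followed here in mouse dendritic cells, as 10 of the 24385 gene symbols of the count table. They were taken by symbol, and all 10 were found. No cut on level or change was applied, but the list was chosen with earlier results of these data known. The cells were bone marrow-derived dendritic cells (BMDCs), antigen-presenting cells grown from the marrow of female wild-type C57BL/6 mice aged 8 to 10 weeks with GM-CSF at 20 ng/mL in a 7-day culture. Non-adherent immature cells, taken on day 6, received AMLE, an apple mango leaf extract, at 400 µg/mL for 24 h, or DMSO at 0.04%, the vehicle, for 24 h. Each group had 3 RNA-seq libraries and 2 ATAC-seq libraries, which map open chromatin by transposase cutting of accessible DNA. The series title names as its question whether the extract matures and activates such cells.

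Immature dendritic cells make chemokines that call in monocytes and granulocytes, and maturing ones turn to those that attract T cells. Ccl2, Ccl7 and Ccl12 attract monocytes through Ccr2. Ccl3, Ccl4 and Ccl5 are inflammatory chemokines that attract T cells and myeloid cells, and Ccl3 and Ccl5 bind Ccr1, on which the rodent myeloid chemokines Ccl6 and Ccl9 act as well. Ccl22 and Ccl17 bind Ccr4 on T cells, regulatory T cells included, and are typical products of dendritic cells. Genes of this family sit in clusters and many are induced through NF-kB, AP-1 and STAT factors.

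In the RefSeq records of GRCm38.p6 (mm10), 8 of the genes lie on chromosome 11 and 2 on chromosome 8. Ccl2, Ccl7 and Ccl12 follow each other with gaps of 8.3 and 54.3 kb, and Ccl5, Ccl9, Ccl6 and Ccl3 with gaps of 42.4, 9.2 and 54.8 kb. Ccl22 (chr8:94745684-94751388) and Ccl17 (chr8:94809380-94812038) are 58.0 kb apart. The records of Ccl3 and Ccl4 overlap, as do those of Ccl5 and Gm32650 and of Ccl6 and E230016K23Rik. Whether counting used strand is not known, and reads of these overlapping genes may have been split or merged.

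Promoters of 6 members (Ccl22, Ccl17, Ccl12, Ccl9, Ccl6 and Ccl3) were in the RefSeq table. The 250 bases before the start are printed, 5′ to 3′, for 4 of them: for Ccl22, which had the largest change, for its neighbour Ccl17, which held STAT matches, for Ccl12, whose open region was listed in DMSO cells alone, and for Ccl9, which held matches to a pair of motifs. Capitals mark motif matches.
Ccl22, chr8:94745434-94745683, plus strand: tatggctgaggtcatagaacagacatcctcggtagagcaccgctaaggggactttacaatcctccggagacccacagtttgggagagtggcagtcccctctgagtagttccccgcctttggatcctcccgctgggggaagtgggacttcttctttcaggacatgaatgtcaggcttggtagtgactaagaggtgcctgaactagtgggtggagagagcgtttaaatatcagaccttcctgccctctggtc
Ccl17, chr8:94810203-94810452, plus strand: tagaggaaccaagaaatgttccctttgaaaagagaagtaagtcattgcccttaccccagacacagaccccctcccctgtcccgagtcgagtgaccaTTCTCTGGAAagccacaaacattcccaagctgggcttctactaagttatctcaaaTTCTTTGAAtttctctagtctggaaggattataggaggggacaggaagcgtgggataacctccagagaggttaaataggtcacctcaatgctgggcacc
Ccl12, chr11:82101595-82101844, plus strand: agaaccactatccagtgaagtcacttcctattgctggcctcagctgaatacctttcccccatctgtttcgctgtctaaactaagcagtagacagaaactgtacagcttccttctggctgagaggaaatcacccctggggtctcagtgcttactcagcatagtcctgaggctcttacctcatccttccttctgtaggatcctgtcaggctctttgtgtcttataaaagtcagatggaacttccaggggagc
Ccl9, chr11:83578637-83578886, minus strand: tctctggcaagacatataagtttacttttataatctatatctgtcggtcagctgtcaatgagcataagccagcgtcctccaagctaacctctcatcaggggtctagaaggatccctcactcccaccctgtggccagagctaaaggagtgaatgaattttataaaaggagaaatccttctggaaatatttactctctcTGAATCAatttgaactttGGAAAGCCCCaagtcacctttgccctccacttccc
The search ran on both strands from 250 bases before to 50 after the start. The STAT letters, TTCNNNGAA or TTCNNNNGAA, stood at positions -154 to -145 (TTCTCTGGAA) and -99 to -91 (TTCTTTGAA) of Ccl17, counted back from the start, and in 14.6% of 32851 promoters. The start used for Ccl17, 94810453, lies inside its gene record, which begins at 94809380. Its printed bases are thus within the record, and the bases before the record were not searched. Ccl9 held the NF-kB consensus at -35 to -26 (GGAAAGCCCC), found in 8.5% of promoters, and the AP-1 letters TGANTCA at -53 to -47 (TGAATCA), found in 7.8%. The interferon response letters GAAANNGAAA, found in 3.4%, were in none of the 6. Ccl22, the gene with the largest change among the members tested, held none of these letters in this window. These matches describe the sequence and are not shown to be bound.

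The RNA libraries held 26010455, 34208286 and 26325173 counts in AMLE replicates 1 to 3 and 31413578, 28457863 and 28754835 in the DMSO replicates. Nothing in the labels assigns replicates to separate mice or cultures, so the p-values reflect the spread among these libraries alone, which may be technical. The first principal component, with 76.6% of the variance, placed the AMLE replicates at 38.3, 46.5 and 23.0 and the DMSO replicates at -34.7, -31.1 and -42.0, so AMLE replicate 3 was the AMLE library nearest to DMSO. Of 13075 genes tested with edgeR, 23.0% were called higher and 25.6% lower in AMLE, a call being a Benjamini-Hochberg adjusted p below 0.05. All AMLE libraries stood above all DMSO libraries for 28.3% of tested genes and below them for 31.4%. All 7 dendritic cell markers looked up were detected, at unequal levels: in CPM (counts scaled to a common library size), Cd74 averaged 3203 in AMLE and 3930 in DMSO, and Itgax, which encodes CD11c, 688 in AMLE and 708 in DMSO. Lower in level, Zbtb46 averaged 45.5 CPM in AMLE and 24.8 CPM in DMSO, and Flt3 39.2 CPM in AMLE and 8.14 CPM in DMSO, both called higher. H2-Ab1 averaged 726 CPM in AMLE and 1177 CPM in DMSO and was called lower (edgeR adjusted p = 0.0408), although its groups overlapped. Cd74, Itgax, Ciita and Csf2ra were not called.

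Of the 10 CC chemokines, 9 passed the filter on low counts. Of these, 5 were called higher after AMLE (Ccl22, Ccl5, Ccl4, Ccl3 and Ccl9), 0 were called lower and 4 were not called (Ccl17, Ccl6, Ccl2 and Ccl7), beside the 23.0% and 25.6% of all tested genes. At an unadjusted p below 0.05, 6 were higher and 0 lower, and the share of all genes at that threshold was not counted. DESeq2 called 6 higher and 0 lower, beside 3003 and 3113 of all 13075 tested genes. With limma-voom 5 were called higher and 0 lower, beside 2990 and 3376 of all tested genes. The median log2 fold change of the 9 was 0.81, against -0.005 for all tested genes. The groups did not overlap for the 5 called members, all with AMLE above (28.3% of tested genes), and 0 tested members had all AMLE libraries below (31.4%).

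**Figure D1:**
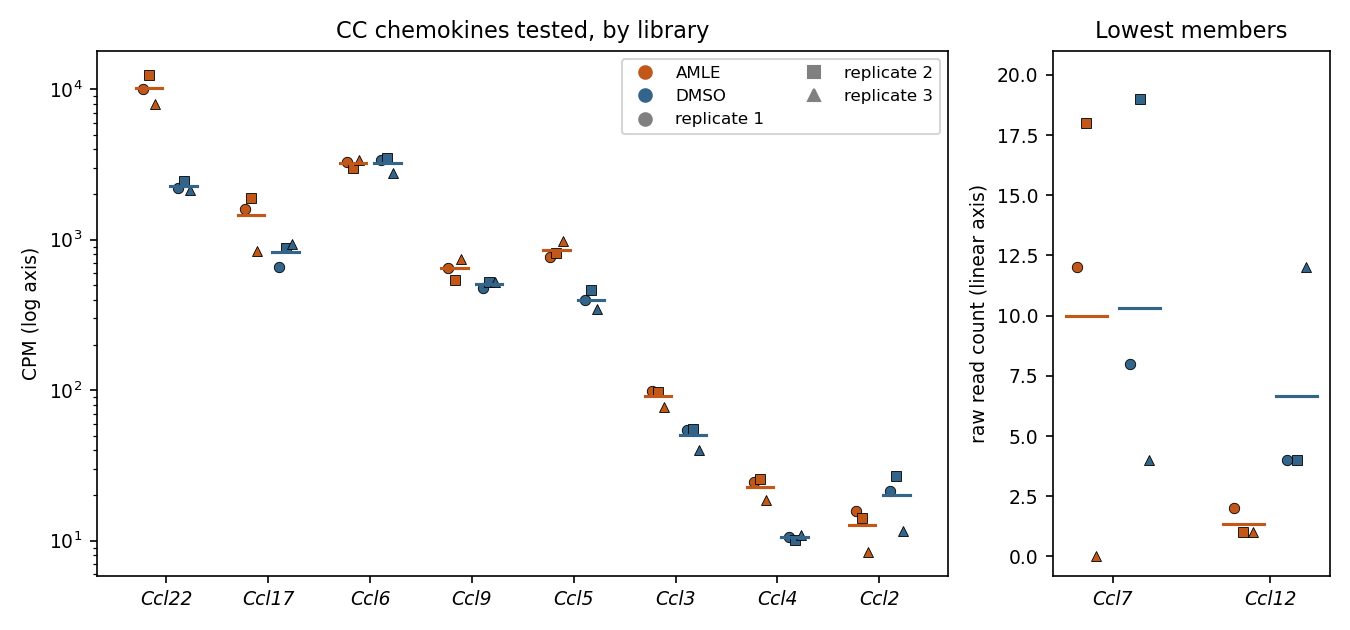
Levels of the CC chemokines in each RNA library. Left, CPM on a log axis; right, raw read counts of the lowest members on a linear axis; orange is AMLE, blue is DMSO, symbols mark the replicate number and lines the group mean. Ccl22 stood between 7970 and 12510 CPM in AMLE and between 2155 and 2444 CPM in DMSO, while the groups of Ccl17, Ccl6, Ccl2 and Ccl7 overlapped.

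Ccl22 had the largest change of the tested members and ranked first by CPM among the chemokine genes in AMLE. AMLE replicates 1 to 3 had 10110, 12510 and 7970 CPM, against 2215, 2444 and 2155 CPM in the DMSO replicates. Even the lowest AMLE library was well above every DMSO library. The means were 10200 ± 2272 CPM in AMLE and 2272 ± 152 CPM in DMSO (SD, n = 3 each), which is 4.49-fold higher after AMLE. The log2 fold change was 2.17 ± 0.16 (SE) and passed the test (edgeR adjusted p = 0.000131). Without AMLE replicate 3 the log2 fold change was 2.33 (edgeR adjusted p = 7.69e-06). Ccl22 was called in all 12 alternative fits, with log2 fold changes of 2.00 to 2.33.

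Ccl17, the neighbour of Ccl22 and the other ligand of Ccr4, was split among the AMLE libraries. AMLE replicates 1 to 3 had 1601, 1907 and 844.5 CPM, against 661, 877 and 943 CPM in the DMSO replicates. AMLE replicates 1 and 2 were above all DMSO libraries, and AMLE replicate 3 lay among them. The means were 1451 ± 547 CPM in AMLE and 827 ± 148 CPM in DMSO (SD, n = 3 each), and the log2 fold change of 0.81 ± 0.29 (SE) did not pass the test (edgeR adjusted p = 0.0557). Leaving out AMLE replicate 3 gave 1.10 and a call (edgeR adjusted p = 0.00154), and leaving out both libraries numbered 3 gave 1.20 (edgeR adjusted p = 0.000347). DESeq2 also called it (0.83, adjusted p = 0.0402), whereas limma-voom (adjusted p = 0.0781) and the replicate block (adjusted p = 0.178) did not.

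The ratio of Ccl22 to Ccl17 reads was 6.32, 6.56 and 9.44 in AMLE replicates 1 to 3, against 3.35, 2.79 and 2.29 in the DMSO replicates. It was higher in every AMLE library, including replicate 3, where Ccl22 was 3.51 times its DMSO mean and Ccl17 was 1.02 times its own. For replicates 1 and 2 these folds over the DMSO mean were 4.45 and 5.51 for Ccl22 and 1.94 and 2.31 for Ccl17. The genes of this pair therefore differed in how far they moved within the same libraries. No test of that difference was made.

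**Figure D2:**
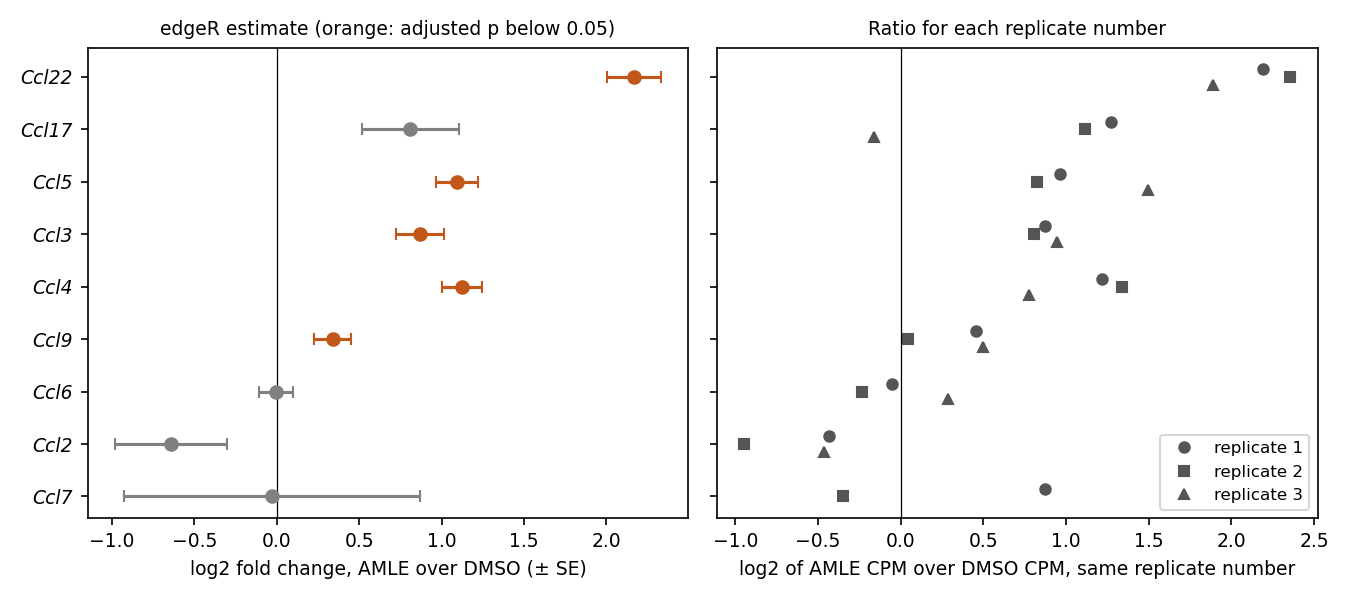
Change of each tested CC chemokine. Left, edgeR log2 fold change of AMLE over DMSO with its standard error, orange where the adjusted p is below 0.05 and grey otherwise; right, the log2 ratio of AMLE to DMSO CPM for libraries of the same replicate number. Ccl22 lies at 2.17 and all its ratios are above 0, while Ccl17 has replicates 1 and 2 above 0 and replicate 3 below, and Ccl7 has no replicate 3 because 1 library had no read.

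The inflammatory chemokine genes Ccl5, Ccl3 and Ccl4 all rose. Ccl5, also known as RANTES, stood at 772, 817 and 976 CPM in AMLE replicates 1 to 3, against 395, 461 and 346 CPM in the DMSO replicates. The lowest AMLE library exceeded the highest DMSO library by a wide margin. Means were 855 ± 107 CPM in AMLE and 401 ± 57.9 CPM in DMSO (SD, n = 3 each), or 2.13-fold higher after AMLE (1.09 ± 0.13 as log2 with its SE; edgeR adjusted p = 0.000671). AMLE replicate 3 was the highest library for Ccl5, unlike for Ccl22 and Ccl17.

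Ccl3 (MIP-1 alpha) stood at 99.1, 97.3 and 77.7 CPM in AMLE replicates 1 to 3, against 54.2, 55.7 and 40.3 CPM in the DMSO replicates. The groups did not overlap, and replicate 3 was the lowest of both groups. Ccl3 was 1.83-fold higher (0.87 ± 0.15 as log2 with its SE; edgeR adjusted p = 0.00303). Libraries of the same number gave nearly equal AMLE to DMSO ratios for Ccl3, of 1.83, 1.75 and 1.93. Ccl4 (MIP-1 beta) was lower in level, at 24.5, 25.5 and 18.8 CPM in AMLE replicates 1 to 3, against 10.5, 10.1 and 11.0 CPM in the DMSO replicates. The DMSO libraries lay close together, and all AMLE libraries were above them. Ccl4 rose 2.18-fold (1.13 ± 0.12 as log2 with its SE; edgeR adjusted p = 0.000419). Ccl5, Ccl3 and Ccl4 were each called in all 12 alternative fits. Without AMLE replicate 3 their log2 fold changes were 1.00, 0.99 and 1.26.

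The myeloid chemokines Ccl9 and Ccl6, neighbours 9.2 kb apart, were abundant in both groups and moved little. Ccl9 stood at 651, 541 and 740 CPM in AMLE replicates 1 to 3, against 477, 528 and 524 CPM in the DMSO replicates. The groups did not overlap, but AMLE replicate 2 was just above the highest DMSO library. The means were 644 ± 99.9 CPM in AMLE and 509.5 ± 28.5 CPM in DMSO (SD, n = 3 each), or 1.26-fold higher after AMLE (0.34 ± 0.11 as log2 with its SE; edgeR adjusted p = 0.0422). That call was lost without any 1 of AMLE replicate 1 (edgeR adjusted p = 0.0917), AMLE replicate 3 (0.0502), DMSO replicate 1 (0.134), DMSO replicate 2 (0.0877) or DMSO replicate 3 (0.082).

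Ccl6 stood at 3271, 2987 and 3384 CPM in AMLE replicates 1 to 3, against 3399, 3506 and 2779 CPM in the DMSO replicates. The groups overlapped throughout. The means were 3214 ± 205 CPM in AMLE and 3228 ± 392 CPM in DMSO (SD, n = 3 each), with a log2 fold change of -0.01 ± 0.10 (SE; edgeR adjusted p = 0.965). Over the alternatives it stayed between -0.13 and 0.05 and was called in 0 of 12.

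The ligands of Ccr2 were scarce beside most other members, and none was called across the groups. Ccl2 (MCP-1) stood at 15.9, 14.1 and 8.44 CPM in AMLE replicates 1 to 3, against 21.4, 27.1 and 11.6 CPM in the DMSO replicates. The libraries numbered 3 were the lowest of both groups, and the groups overlapped, while each AMLE library was below the DMSO library of its own number. Across the groups the log2 fold change was -0.64 ± 0.34 (SE; edgeR adjusted p = 0.157). With the replicate block it was -0.63 and called lower (edgeR adjusted p = 0.00277), as it was without DMSO replicate 3 (-0.92, adjusted p = 0.0344) and without both libraries numbered 3 (-0.69, adjusted p = 0.00173).

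Ccl7 (MCP-3) had 12, 18 and 0 reads in AMLE replicates 1 to 3 and 8, 19 and 4 reads in the DMSO replicates. The counts overlapped, and a count of 0 in AMLE replicate 3 allows a level of up to 0.115 CPM (3 reads). The log2 fold change was -0.03 ± 0.90 (SE; edgeR adjusted p = 0.981), and the summed ratio of AMLE over DMSO was 0.999 (exact 95% interval 0.584 to 1.71). No change of Ccl7 was detectable at this depth. Ccl12 (MCP-5, a gene of rodents) had 2, 1 and 1 reads in AMLE replicates 1 to 3 and 4, 4 and 12 reads in the DMSO replicates, and did not pass the filter. All AMLE counts were below all DMSO counts, and the summed ratio of AMLE over DMSO was 0.206, with an exact 95% interval of 0.0513 to 0.616. Both intervals cover counting error only. Fitted without the filter, Ccl12 gave a log2 fold change of -2.18 ± 0.77 (SE) and was not called (edgeR adjusted p = 0.0531).

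Together the 10 genes took up 1.64%, 1.90% and 1.39% of all counts in AMLE replicates 1 to 3, against 0.725%, 0.792% and 0.688% in the DMSO replicates. Their make-up differed as well. Ccl22 gave 61.1%, 66.2% and 56.8% of the members' reads in the AMLE replicates, against 30.6%, 30.9% and 31.6% in the DMSO replicates. Ccl6 gave 19.8%, 15.8% and 24.1% in the AMLE replicates, against 47.0%, 44.3% and 40.8% in the DMSO replicates. The order of this pair was thus the same within each group and opposite between them, although the CPM of Ccl6 barely differed.

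**Figure D3:**
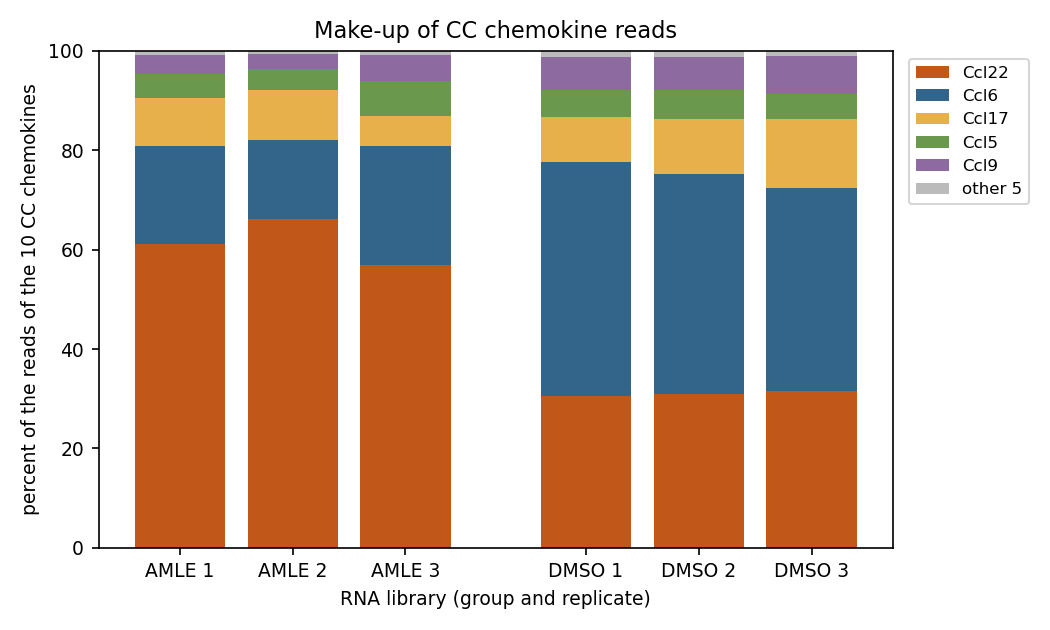
Share of each CC chemokine in the reads of the 10 genes, by RNA library, in percent; the grey segment pools the 5 lowest. Ccl22 fills 56.8% to 66.2% of the AMLE bars and 30.6% to 31.6% of the DMSO bars, and Ccl6 fills 15.8% to 24.1% of the AMLE bars and 40.8% to 47.0% of the DMSO bars.

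Among 38 chemokine genes looked up, 33 had at least 1 read, and members held the first 5 places by mean CPM in both groups. CPM is not corrected for transcript length, so an order between genes holds for reads and not for molecules. In AMLE the order was Ccl22, Ccl6, Ccl17, Ccl5 and Ccl9, and in DMSO it was Ccl6, Ccl22, Ccl17, Ccl9 and Ccl5. Neighbours in these orders were not always apart: in AMLE replicate 3 Ccl5 (976 CPM) stood above Ccl17 (844.5 CPM), whereas in the other AMLE libraries Ccl17 was higher. In DMSO, Ccl9 (477 to 528 CPM) and Ccl5 (346 to 461 CPM) did not overlap, nor did Ccl6 and Ccl22. Ccl3 ranked 9 in AMLE, after the non-CC chemokines Cxcl16, Cxcl3 and Cx3cl1, and 8 in DMSO, after Cxcl16 and Cx3cl1. Among all 24385 genes Ccl22 ranked 1, 1 and 3 in AMLE replicates 1 to 3, against 24, 23 and 29 in the DMSO replicates. Ccl6 ranked 13 to 17 in AMLE and 11 to 13 in DMSO.

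Of 11 other CC chemokines, 4 had no read in any library and 3 were tested. Of the 3 tested, 1 was called higher and 0 lower, beside 23.0% and 25.6% of all tested genes. Their median log2 fold change was 0.10. Calls on so few tested genes do not set this list apart from other genes. The 11 genes added little to the family's reads: their summed level was 4.47 to 115 CPM in AMLE and 3.97 to 4.37 CPM in DMSO. Ccl24 (eotaxin-2), an eosinophil attractant, made up the upper end. Its AMLE replicates 1 to 3 had 71.4, 111 and 0.535 CPM, against 0.477, 0.527 and 0.517 CPM in the DMSO replicates. AMLE replicates 1 and 2 were far above DMSO, and AMLE replicate 3 was at the DMSO level. Its log2 fold change was 6.91 ± 1.68 (SE; edgeR adjusted p = 0.0138), and the call was lost with limma-voom (0.437), without the filter on low counts (0.0778), without DMSO replicate 1 (0.0536) and without DMSO replicate 2 (0.051). Without AMLE replicate 3 it was 7.50 (edgeR adjusted p = 1.34e-05). Ccl25 and Ccl27a, the other tested genes, were not called (edgeR adjusted p = 0.60 and 0.91).

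Of 14 receptors for CC chemokines, 11 were tested, 4 were called higher and 2 lower, beside 23.0% and 25.6% of all tested genes, with a median log2 fold change of 0.15. Such counts are near those shares and do not set the receptors apart from other genes. Ccr7, which binds Ccl19 and Ccl21 and leads dendritic cells to lymph nodes, was the most abundant by the mean over both groups, although Ccr2 averaged slightly more in DMSO. Ccr7 stood at 1633, 1947 and 1563 CPM in AMLE replicates 1 to 3, against 587, 673 and 615 CPM in the DMSO replicates (log2 fold change 1.46 ± 0.10, SE; edgeR adjusted p = 8.45e-05). Its ligand gene Ccl19 had at most 1 read in any library, and Ccl21a had none. Ccr3, the eosinophil receptor that Ccl24 and Ccl5 bind, averaged 43.7 ± 11.6 CPM in AMLE and 12.3 ± 2.28 CPM in DMSO (SD, n = 3 each; log2 fold change 1.83 ± 0.22, SE; edgeR adjusted p = 0.000763). The decoy receptor Ackr1 rose (log2 fold change 2.13, SE 0.65, edgeR adjusted p = 0.0301) but averaged 0.797 CPM in AMLE and 0.175 CPM in DMSO, and that call was lost without AMLE replicate 1 (0.093), AMLE replicate 2 (0.0746) or DMSO replicate 3 (0.0702). Ccrl2 rose as well (0.54, edgeR adjusted p = 0.0142), a call lost without DMSO replicate 1 (0.0534) or DMSO replicate 2 (0.0528).

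Receptors of the members themselves were chosen for mention after their values were seen. Ccr2, the receptor of Ccl2, Ccl7 and Ccl12, averaged 355 ± 76.4 CPM in AMLE and 637 ± 83.0 CPM in DMSO (SD, n = 3 each) and fell (log2 fold change -0.84, SE 0.16, edgeR adjusted p = 0.00556). Ccr1, on which Ccl6 and Ccl9 act, averaged 334 CPM in AMLE and 301 CPM in DMSO and was not called (edgeR adjusted p = 0.204). Ccr4, bound by Ccl22 and Ccl17, was at 1.84 CPM in AMLE and 2.62 CPM in DMSO and was not called (edgeR adjusted p = 0.209).

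**Figure D4:**
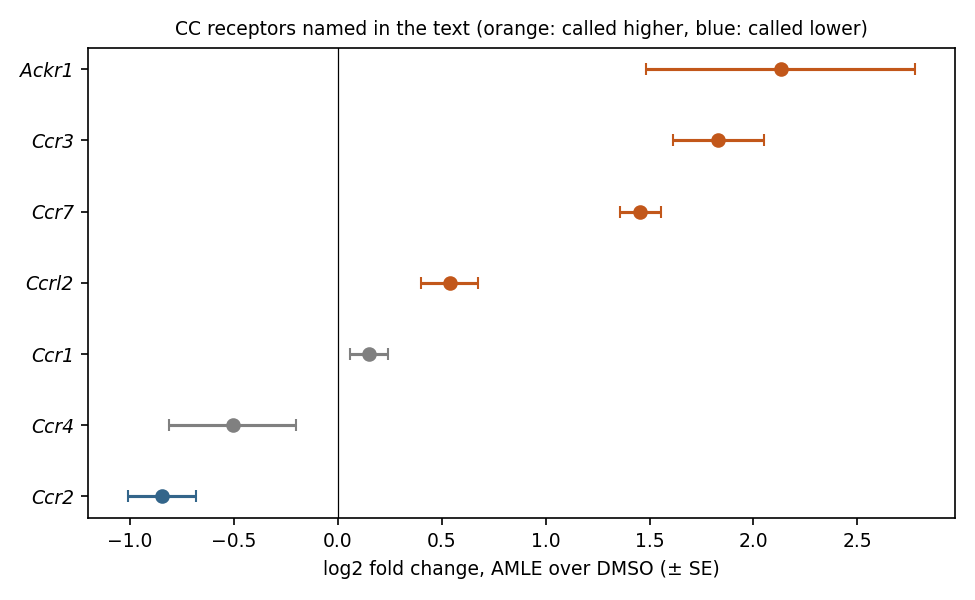
Change of the 7 CC chemokine receptor genes named in the text, as edgeR log2 fold change of AMLE over DMSO with its standard error; orange genes were called higher, blue ones lower and grey ones were not called. Ccr7 lies at 1.46 and Ccr2 at -0.84.

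Of 23 transcription factors and inhibitors known to act at chemokine genes, all tested, 16 were called higher and 1 lower, with a median log2 fold change of 0.66, beside the 23.0% and 25.6% of all tested genes. Irf8, a factor of dendritic cell development, averaged 803 ± 101 CPM in AMLE and 218 ± 16.4 CPM in DMSO (SD, n = 3 each; log2 fold change 1.88 ± 0.10, SE; edgeR adjusted p = 4.59e-05). Irf5, the most abundant of the list by the mean over both groups though below Irf8 and Nfkb1 in AMLE, averaged 559 CPM in AMLE and 513 CPM in DMSO and was not called (edgeR adjusted p = 0.111). Named after their values were seen, the NF-kB subunit genes rose by 1.15 (Rel), 0.86 (Nfkb2), 0.79 (Relb), 0.66 (Nfkb1) and 0.36 (Rela) on the log2 scale (edgeR adjusted p of 0.00134 or lower). Stat6, the factor through which interleukin 4 induces Ccl17 and Ccl22, was at 0.16 (edgeR adjusted p = 0.068), and Irf4 was at 0.30 (edgeR adjusted p = 0.0594).

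Markers of other cells that such cultures can hold were counted in the same fit, to be read beside the 23.0% of all tested genes called higher and 25.6% called lower. In bulk RNA, fewer cells of a type and less RNA per cell cannot be told apart. Of 10 macrophage markers 1 was called higher and 7 lower, with a summed level of 865 to 1518 CPM in AMLE and 1580 to 1955 CPM in DMSO. Neutrophil markers fell in 6 of 8 tested genes and rose in 0, and summed to 8708 to 12160 CPM in AMLE and 13280 to 21150 CPM in DMSO. Monocyte markers fell in 2 of 4 and rose in 0 (690 to 842 CPM in AMLE, 1283 to 1427 CPM in DMSO). Mast cell and basophil markers rose in 4 of 5 tested genes and fell in 0 (179 to 326 CPM in AMLE, 103 to 161 CPM in DMSO), while Mcpt4 had 1, 0 and 0 reads in AMLE replicates 1 to 3 and 0 in each DMSO replicate and was not tested. Eosinophil markers rose in 1 of 3 and fell in 0 (1718 to 2248 CPM in AMLE, 1253 to 1922 CPM in DMSO). Lymphocyte markers fell in 1 of 4 tested genes and rose in 0, and summed to 12.9 to 20.1 CPM in AMLE and 13.1 to 18.9 CPM in DMSO. The eosinophil and lymphocyte counts are near the shares of all genes. Of 3 stromal markers 1 was tested and fell, and they summed to 0.554 to 0.764 CPM in AMLE and 0.948 to 1.02 CPM in DMSO. Of 7 dendritic cell markers 2 were called higher and 1 lower (4911 to 5713 CPM in AMLE, 5293 to 7730 CPM in DMSO). Several of these cells also make CC chemokines, and the part of any such shift in the chemokine values was not tested.

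Genes with a pattern like that of a member were looked for among 8949 genes outside the chemokine lists with a mean of at least 10 CPM, by Pearson correlation of log2 CPM over the 6 libraries. These correlations include the difference between the groups and are a description. Closest to Ccl22 were Plekha2 (r = 0.9996), Gbp5 (0.9995) and Cd274 (0.9994), the last of which encodes the checkpoint ligand PD-L1. Closest to Ccl17, with its low AMLE replicate 3, were Rbck1 (0.986), Tmem64 (0.984) and Plekhf1 (0.983). Ccl5 was most like Ubash3b (0.9991) and Spata31d1b (0.996), Ccl4 most like Lad1 (0.999), Tcaf2 (0.998) and Tbc1d17 (0.997), and Ccl3 most like Tab2 (0.998), Dmtf1 (0.998) and Actn1 (0.997). Ccl9 came closest to Prdx1 (0.993), Mmp12 (0.991) and Srxn1 (0.991), of which Prdx1 and Srxn1 are antioxidant genes. For Ccl2 they were Tnpo2 (0.995) and Ift80 (0.986), for Ccl6 Ceacam15 (0.977), Rprd1a (0.974) and Adprhl2 (0.966), and for Ccl7 Sepw1 (0.988), Ncdn (0.987) and Ddx49 (0.976).

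The chromatin data are peak lists, 1 per library, with 15805 and 15597 distinct peaks in AMLE replicates 1 and 2 and 18460 and 19225 in DMSO replicates 1 and 2. With 2 lists per group and no read counts, no test was made, and the shorter AMLE lists bear on each absence given here. Of 13 open regions within 5 kb of a member, 7 were in all 4 lists, where 49.0% of all 24542 merged regions were. In both DMSO lists and no AMLE list there was 1 region, against 5.95% of all regions, and in both AMLE lists and no DMSO list there were 0, against 0.460%. Of the 13 regions, 8 and 9 were listed in AMLE replicates 1 and 2, and 11 and 12 in DMSO replicates 1 and 2. Ccl7 had no peak within 10 kb in any library, and the other 9 genes had at least 1 region within 5 kb.

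Ccl22, whose mRNA rose most among the tested members, had a peak over its start in all 4 libraries. The region, chr8:94745258-94746269, covers the printed Ccl22 promoter. The authors' fold enrichment there was 7.07 and 8.47 in AMLE replicates 1 and 2 and 6.04 and 9.52 in DMSO replicates 1 and 2, with a -log10 q of 12.7 and 17.2 in AMLE and 10.0 and 25.4 in DMSO. A further region 0.91 kb past the gene, chr8:94752294-94753211, was also in all 4 lists, with a -log10 q of 4.77 and 3.47 in AMLE and 5.58 and 13.3 in DMSO. Peak heights are the authors' values within each list, so they rank peaks of one library and do not measure a change.

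Ccl17 likewise had a start peak in all 4 lists (chr8:94809960-94810725), with a -log10 q of 5.34 and 6.93 in AMLE and 8.06 and 11.8 in DMSO. Both STAT matches of the printed Ccl17 promoter fall inside that region. A weaker region 4.62 kb below the gene was listed in AMLE replicate 2 and DMSO replicate 2. The start of Ccl3 lay in chr11:83648444-83649840, the member region with the highest -log10 q in each AMLE library. The -log10 q there was 29.8 and 26.2 in AMLE and 35.3 and 49.6 in DMSO. This region also overlaps the Ccl4 record, which spans 16060 bases and reaches into Ccl3. No start was known for Ccl4, so the region cannot be assigned to it. A further region in the Ccl4 record, chr11:83662321-83662715, was listed in DMSO replicate 1 alone (-log10 q 2.85). Ccl6 had regions at both ends in all 4 lists: the one at its start had a -log10 q of 8.97 and 17.9 in AMLE and 9.71 and 25.1 in DMSO.

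Ccl12 was the member whose start was open in DMSO lists alone. The region, chr11:82101373-82102055, had a -log10 q of 4.90 and 5.31 in DMSO replicates 1 and 2, at percentiles 19.5 and 19.6 of those lists, and no peak in AMLE. It covers the printed Ccl12 promoter. Among 9978 tested genes with a known start, 1.35% showed this pattern within 1 kb of the start, and 0.24% the opposite one. Ccl2 had a region at its lower end (chr11:82035337-82035612) in AMLE replicate 1 (-log10 q 7.30) and in both DMSO libraries (14.0 and 23.7), and none in AMLE replicate 2. Ccl5 had one at its upper end in AMLE replicate 2 (5.34) and both DMSO libraries (5.55 and 4.32), and none in AMLE replicate 1. Ccl9 had no start peak in any list. A region just below that gene, chr11:83572172-83572761, was in all 4, with a -log10 q of 6.20 and 11.0 in AMLE and 12.9 and 13.6 in DMSO.

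**Figure D5:**
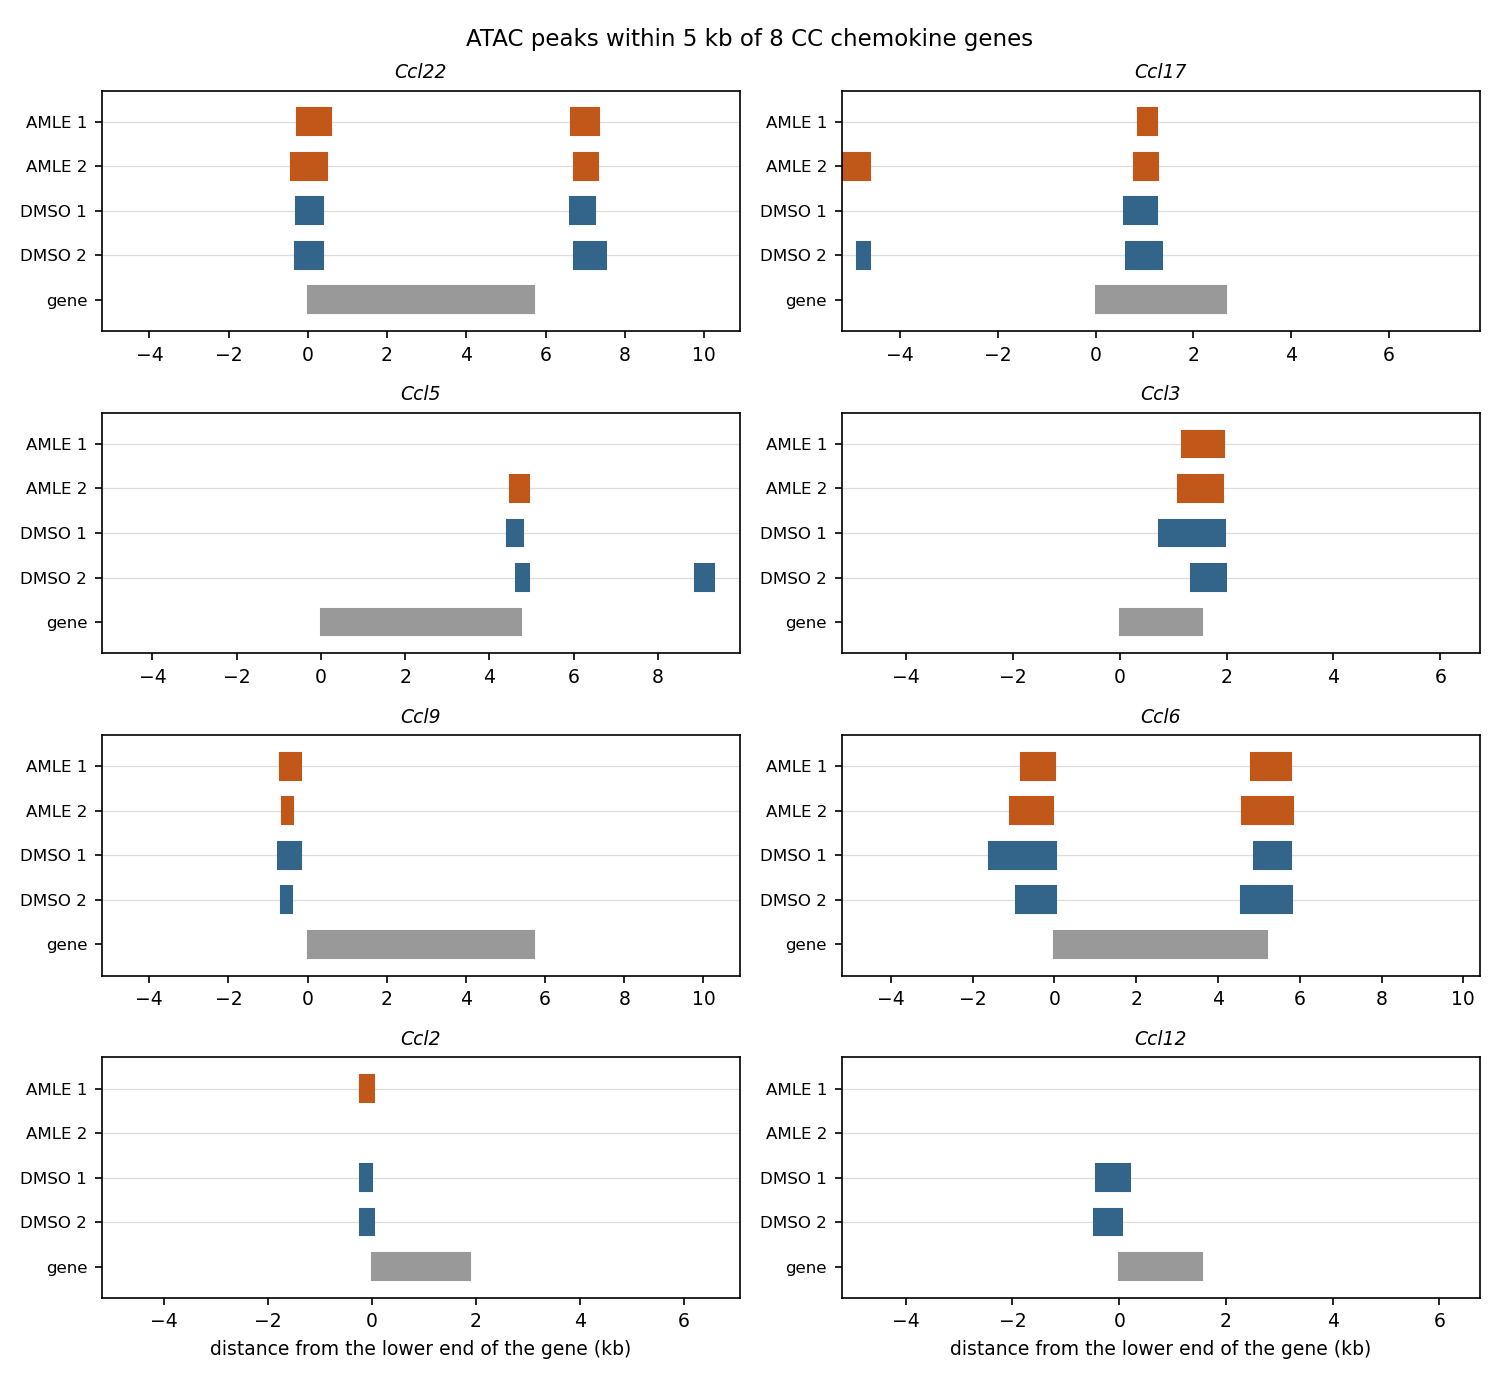
ATAC peaks within 5 kb of 8 CC chemokine genes, 1 row per library, with AMLE in orange, DMSO in blue and the RefSeq gene in grey; the axis is the distance in kb from the lower end of the gene. Ccl22, Ccl17, Ccl3, Ccl9 and Ccl6 have a region in all 4 libraries, and Ccl12 has 1 in the DMSO libraries alone.

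Over the 6 members with a known start, a peak within 1 kb was present for 4 in each AMLE library and for 5 in each DMSO library. Of 9978 tested genes, 73.0% and 72.8% had such a peak in AMLE replicates 1 and 2, and 74.5% and 76.8% in DMSO replicates 1 and 2. The members with a start peak in all 4 lists were Ccl22 and Ccl3, whose mRNA rose, and Ccl17 and Ccl6, which were not called. Such a peak in all 4 lists was present for 67.8% of tested genes.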

How the data were processed

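Raw read counts per gene symbol were deposited by the authors in 1 table, with 1 column per RNA library and 0 columns left unused. Per the labels' protocols the libraries were made with a stranded mRNA kit. Per the submitters' processing notes the build was mm10 and the tools included STAR 2.7.11b, Bowtie2 2.4.4 and MACS3 3.0.0a7, besides trimming and quality tools, with no role given for any. Not given in the sources used here are the counting tool, its use of strand, the annotation and the settings of peak calling. For each ATAC library the authors deposited a peak list that gives each summit a ratio over the local background (fold enrichment), a −log10 p, a −log10 q and a whole-number score. Consensus lists per group were not used here.

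Groups and replicate numbers came from the sample titles. Counts were tested with edgeR 4.0.16 in R 4.3.3: TMM factors, filterByExpr at a minimum count of 10, robust quasi-likelihood F test, two-sided, Benjamini-Hochberg adjustment over 13075 genes, calls below 0.05. SE was taken as the size of the log2 fold change divided by the root of F, an approximation. CPM uses the effective library size, except that shares use total counts. The procedure was tested on simulated data. Alternatives were DESeq2 1.42.0, limma-voom (limma 3.58.1), DESeq2 size factors, no filter, a replicate block, and leaving out libraries. Deviations from the group means of libraries with the same number correlated at 0.292, 0.28 and 0.431. Between numbers 1 and 2 they correlated at 0.105 and 0.11, and between either of these and number 3 at -0.31 to -0.266. The numbers may therefore pair the libraries, in part through the libraries numbered 3 standing apart. Such a pairing comes from the data, not from the labels. The main fit did not use it, and the replicate block did.

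Summits sharing an interval were merged, and the 4 lists were merged into regions; presence needed a 1-base overlap. Coordinates are 1-based, GRCm38.p6. Promoter sequences and start sites came from the RefSeq table, and motif positions were searched in it. The members, the lists and the rule for named genes were chosen with earlier results of these data known. The rule named all members, the most abundant gene and the 2 called genes with the largest change of each related list, chemokines ranking above a named member, and the 3 genes most like each member; a few genes that it covers are not reported here. Intervals and floors cover counting error only.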

Additional observations from a re-analysis of the deposited data

How the results depend on the processing

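The count of members called higher was 5 and ranged from 4 to 6 over the alternatives. It was 6 with DESeq2 and without both libraries numbered 3, where Ccl17 was added. When 1 library was left out it was 4 to 5, and Ccl9 was lost each time except without AMLE replicate 2. Without AMLE replicate 3, Ccl17 took the place of Ccl9. The count called lower, 0, became 1 with the replicate block and 1 without both libraries numbered 3, in each case Ccl2, and ranged from 0 to 1 when 1 library was left out. Apart from Ccl2, the replicate block changed no call among the members. The other CC chemokines called higher, 1, fell to 0 with limma-voom and 0 with no low-count filter, and ranged from 0 to 1 when 1 library was left out, through Ccl24. Receptor and regulator counts stayed within 1.5 times. Of the gene changes recomputed, 371 kept their side of the threshold, 6 gained a call and 19 lost one, and no called change turned its sign. Open regions in both DMSO lists and no AMLE list, 1 near the members, ranged from 2 to 3 when 1 ATAC library was left out, since fewer lists then had to share or lack a peak. With a −log10 q of at least 5 the count was again 1, but the region was the one past Ccl22, since the Ccl12 region then lacked a peak in DMSO replicate 1. The causes of the other shifts were not tested. Ranks by CPM per kb were not run because no transcript lengths were given. Reads limit Ccl7 and Ccl12, and peak lists without counts limit all chromatin comparisons to presence.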
